A study of Mus musculus with 40 samples.

Results

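The Slc25 genes code for the mitochondrial carriers, the largest family of transporters of the inner mitochondrial membrane. Members were the genes in the deposited probe table whose symbol is Slc25a followed by a number, except Slc25a20, and each gene was read from its most counted probe. The table held 45 such genes with 62 probes among 21448 gene symbols, and 15 of the genes had more than 1 probe. A gene was taken as detected when its probe had at least 100 reads in at least 4 of 39 libraries. By this rule 28 of the 45 carriers (62.2%) were detected in liver, compared with 8143 of the 21448 genes (38%).

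The livers came from wildtype Crl:CD1(ICR) mice given GenX, the ammonium salt of a fluorinated ether acid, by gavage for 90 days. The daily doses were 0.1, 0.5 and 5 mg per kg of body weight, and control mice (dose 0) received deionized water. From each of the 8 groups of sex and dose, the first 5 mice by animal number were sequenced. Each library was made from a single section of 1 formalin-fixed, paraffin-embedded block per mouse, so a library stands for 1 animal and 1 piece of its liver. TempO-Seq ligates a pair of short detector oligos on each target RNA and counts the ligated probe by sequencing. The library of mouse 355, a female at 0.5 mg/kg, was left out for its depth, which left 4 mice in that group.

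Carriers move metabolites that cannot cross the inner membrane by themselves. They bring in ADP and phosphate and release ATP, exchange dicarboxylates and amino acids for the malate-aspartate shuttle and the urea cycle, and supply cofactors, iron and glutathione to the matrix. In liver the family links the cytosolic and the mitochondrial steps of urea, glucose and lipid synthesis. GenX activates PPARα in mouse liver, a nuclear receptor for fatty acids that binds DNA together with RXR at direct repeats of the half-site AGGTCA.

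The 39 libraries held 10341341 to 15562253 reads. In each library the smoothed histogram of nonzero counts had its first peak at 21 to 50 reads. This was taken as the reads that 1 captured molecule gave, which left 284218 to 649658 molecules per library. Some counts were below the peak of their library, so molecules are an estimate. Median molecules moved with dose, from 329378 in control males to 580385 in males at 5 mg/kg, and from 420153 in control females to 322975 in females at 5 mg/kg. The hepatocyte markers Alb, Ttr, Apoa1 and Apob were abundant in every library. Their summed level was 29970 to 36570 CPM (reads scaled to a common library size) in control males and 17830 to 24590 CPM at 5 mg/kg, and in females it was 22550 to 38950 CPM and 15060 to 24310 CPM. Apoa1, with 107194 to 399490 reads per library compared with 30340 to 82036 for Alb, carried most of this sum. It was called lower in both sexes and Apob in males, whereas Alb and Ttr were not called. The sum of 5 stellate cell markers was 52.1 to 121 CPM in control males and 153 to 191 CPM at 5 mg/kg, with 2 of the 5 called higher. That of 4 markers of dividing cells was 0 to 2.71 CPM and 23.4 to 70.7 CPM, with 1 of the 4 called. Over all probes, 4.83% were called higher in males at 5 mg/kg. In control females the stellate and dividing-cell sums were 93.45 to 146 CPM and 0 to 10.6 CPM. Females at 5 mg/kg had 88.2 to 146 CPM and 0 to 33.5 CPM, with no call by edgeR. In sections of whole tissue, fewer cells of a type and less RNA per cell cannot be told apart, and the part of these differences in the carriers' values was not tested.

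Of the 45 carriers, 40 had enough reads to be tested, the 28 detected genes and 12 others with few reads, among them Slc25a12, Slc25a26, Slc25a29, Slc25a31, Slc25a36 and Slc25a48. At the limit, Slc25a24 was just inside with 100 reads in 4 libraries and Slc25a12 just outside with 3 libraries. Slc25a18, Slc25a41, Slc25a43, Slc25a53 and Slc25a54 were not tested. The question was which carriers changed with dose in each sex, and each dose group was set against the controls of its own sex with edgeR's quasi-likelihood test with Benjamini-Hochberg adjustment over 17877 probes and a threshold of 10%. At 5 mg/kg, 6 carriers were called in males, 4 higher and 2 lower, against 8.28% of all probes. In females 4 were called at 5 mg/kg, 2 higher and 2 lower, against 3.66% of all probes. Slc25a4 and Slc25a11 rose and Slc25a15 fell in both sexes, Slc25a23 fell and Slc25a39 and Slc25a3 rose in males, and the fourth call in females, Slc25a36, rested on very few reads. With the library of mouse 355 put back, the calls that remained at 5 mg/kg were Slc25a4 and Slc25a39 in males and Slc25a36 in females.

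At the middle dose of 0.5 mg/kg, Slc25a23 was the 1 carrier called in males, against 2.38% of all probes, and no carrier in females, against 0.213%. At 0.1 mg/kg no carrier was called by edgeR in either sex, against 0.0336% of all probes for males and 0% for females. At an unadjusted p under 0.05, edgeR gave 3 of 40 carriers for males and 4 for females at 0.1 mg/kg, and 2 for females at 0.5 mg/kg. Over all probes this share was 13.6%, 10.3% and 10.2%. DESeq2 called 0 carriers in each of these comparisons. The control mice of each sex served all 3 doses.

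Members were found on both sides of their controls. In males at 5 mg/kg the median log2 fold change of the 40 carriers tested was -0.15 and 17 of them were higher, compared with a median of 0.10 and 54.7% higher over all probes. In females the median was -0.09 with 18 of 40 higher, compared with -0.01 and 47.0% over all probes. Among the 28 detected carriers 14 were higher and 14 lower in each sex, with medians of -0.03 and 0.01. The median over the carriers tested depended on the processing, and with counts in molecules, which left 20 carriers, it was -0.01 in males and 0.13 in females. The groups did not overlap for 6 carriers in males, where this held for 8.48% of all probes, and for 2 carriers in females, where it held for 3.35%. In males these were Slc25a4 and Slc25a39 above the controls and Slc25a15, Slc25a23, Slc25a28 and Slc25a48 below them, and Slc25a48, which was not detected, had 5 to 28 reads in controls and 0 to 5 at 5 mg/kg. In females they were Slc25a11 above and Slc25a15 below.

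**Figure D1:**
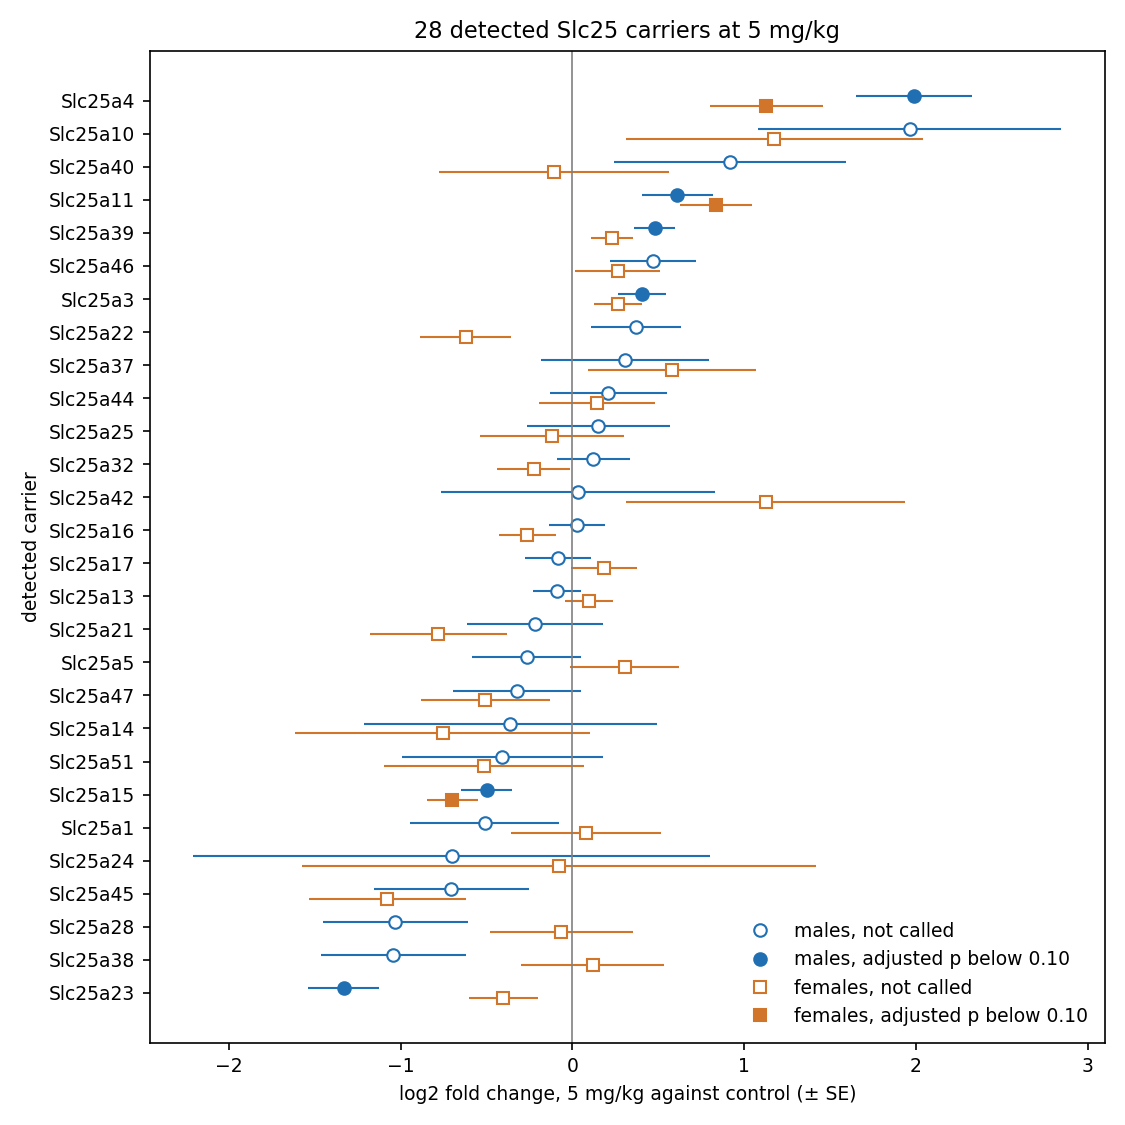
Log2 fold change at 5 mg/kg against control mice of the same sex (x axis, bars are the SE) for the 28 detected carriers (y axis, ordered by the change in males). Filled symbols passed an adjusted p of 0.10: Slc25a4 lies at 1.99 in males and 1.13 in females, and Slc25a23 at -1.33 in males and -0.40 in females.

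Among the 8 carriers of adenine nucleotides and phosphate, 6 were detected (Slc25a3, Slc25a4, Slc25a5, Slc25a23, Slc25a24 and Slc25a25). In males at 5 mg/kg 2 of the 7 tested rose and 1 fell, and in females 1 rose. Over all probes, 4.83% were called higher and 3.45% lower in males, and 1.83% each way in females. These shares also apply to the groups of carriers below. Slc25a4 is the ADP/ATP carrier known as Ant1, the main form in heart and skeletal muscle, and lies on chr8:46206797-46211284 (GRCm38, minus strand). Its level in control males was 18.5, 36.97, 42.8, 37.9 and 20.5 CPM, and in males at 5 mg/kg 102, 261, 107, 67.7 and 83.7 CPM. All 5 treated males lay above all control males, and mouse 402, at 261 CPM, stood far above the rest. The mean rose from 31.3 ± 11.05 to 124 ± 77.9 CPM (SD, n = 5 each), a log2 fold change of 1.99 (SE 0.34, adjusted p = 2.37e-05 by edgeR). Without mouse 402 the log2 fold change was 1.51 (adjusted p = 0.0011 by edgeR).

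No change of Slc25a4 was called at the lower doses. It measured 17.7, 15.8, 27.2, 12 and 21.2 CPM in males at 0.1 mg/kg and 20.4, 10.7, 24.5, 13.3 and 26.5 CPM at 0.5 mg/kg, in the range of the control males or below it. Against control the changes were -0.74 (SE 0.33, log2) and -0.72 (SE 0.33) and neither passed the threshold (adjusted p = 0.35 and 0.259 by edgeR). The step from 0.5 to 5 mg/kg was 2.70 (SE 0.35, adjusted p = 2.79e-07 by edgeR).

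In females the change of Slc25a4 was smaller. Control females had 18.4, 34.2, 28.9, 36.3 and 27.1 CPM and females at 5 mg/kg had 55.9, 51.5, 34.3, 79.4 and 96.0 CPM. Mouse 453, at 34.3 CPM, fell within the range of the controls and the other 4 treated females lay above it. The log2 fold change was 1.13 (SE 0.33, adjusted p = 0.0454 by edgeR), and the call was lost without mouse 151, 155, 454 or 455 (adjusted p = 0.15, 0.103, 0.129 and 0.196). Females at 0.1 mg/kg ranged from 9.40 to 34.5 CPM and those at 0.5 mg/kg from 22.5 to 28.9 CPM, the latter all below the females at 5 mg/kg. The step from 0.5 to 5 mg/kg was 1.37 (SE 0.36, adjusted p = 0.0424 by edgeR), and it was lost without mouse 351, 353, 354, 454 or 455 (adjusted p up to 0.17). With the library of mouse 355 put back the step was 0.21 (adjusted p = 1). The difference between the sexes in the change at 5 mg/kg was -0.86 (SE 0.46, females minus males) and did not pass the threshold (adjusted p = 0.439 by edgeR). These values rest on few molecules, 6.1 to 13.7 per library in control males and 41.5 to 176 at 5 mg/kg, and the second probe for the gene gave at most 1.2 molecules in the controls and at 5 mg/kg.

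Slc25a23 carries ATP-Mg in exchange for phosphate and is regulated by calcium. It lies on chr17:57043711-57059863 (GRCm38, minus strand). Control males had 168, 211, 155, 160 and 193 CPM, males at 0.1 mg/kg 182, 164, 212, 144 and 98.4 CPM, males at 0.5 mg/kg 109, 98.6, 124, 91.6 and 71.5 CPM, and males at 5 mg/kg 68.4, 63.4, 84.4, 78.2 and 57.5 CPM. All males at 0.5 and at 5 mg/kg lay below all control males, whereas the 0.1 mg/kg group overlapped the controls. On the log2 scale the change was -0.15 (SE 0.20) at 0.1 mg/kg, -0.84 (SE 0.20, adjusted p = 0.0146 by edgeR) at 0.5 mg/kg and -1.33 (SE 0.20, adjusted p = 3.68e-06 by edgeR) at 5 mg/kg. The further step from 0.5 to 5 mg/kg, -0.49 (SE 0.20), did not pass the threshold (adjusted p = 0.293 by edgeR).

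Females started lower. Control females had 118, 88.4, 105, 127 and 112 CPM, all below every control male, and the difference between the sexes in control mice was -0.69 on the log2 scale (SE 0.20, females minus males, adjusted p = 0.054 by edgeR). Without control males 102 or 105, or control females 152 or 153, that adjusted p was 0.156, 0.113, 0.159 and 0.115. Females at 5 mg/kg had 68.8, 55.8, 109, 112 and 71.8 CPM, of which 3 lay below the controls and 2 within their range. Their log2 fold change at 5 mg/kg was -0.40 (SE 0.20, adjusted p = 0.287 by edgeR), and at 0.5 mg/kg, with 129, 158, 75.2 and 108 CPM, it was 0.10 (SE 0.21). The difference in the change, females minus males, was 0.93 (SE 0.29) at 5 mg/kg and 0.94 (SE 0.29) at 0.5 mg/kg. Neither difference passed the threshold by edgeR (adjusted p = 0.126 and 0.21), and both did by DESeq2.

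Slc25a3 imports the phosphate used for ATP synthesis. Its level was 1024, 791, 832, 912 and 880 CPM in control males and 1084, 1373, 1259, 906 and 1256 CPM at 5 mg/kg. Mouse 404 lay within the range of the controls and the other 4 treated males above it. The mean was 0.41 higher on the log2 scale (SE 0.14, adjusted p = 0.0713 by edgeR), and the call was lost without mouse 102, 103, 104, 105, 402, 403 or 405, with adjusted p-values up to 0.214. It was also lost with DESeq2 (adjusted p = 0.121) and with DESeq2 size factors in edgeR (adjusted p = 0.161). Females had 752 to 1139 CPM in controls and 1090 to 1353 CPM after 5 mg/kg, and their log2 fold change of 0.27 (SE 0.14) did not pass the threshold. A second probe for the gene, with 0 to 19.3 CPM over all groups, lay on the other side, at -1.48 (SE 1.52) in males and -1.14 (SE 1.505) in females, and was not called.

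The rest of the group was not called in any comparison with control mice. Slc25a5, the ADP/ATP carrier Ant2 that most dividing tissues use, had 52.4 ± 22.3 CPM in control males and 43.5 ± 12.3 CPM at 5 mg/kg, and 33.6 ± 8.27 and 41.6 ± 21.2 CPM in females (SD, n = 5 each). Slc25a25, an ATP-Mg/phosphate carrier, ranged from 12.4 to 108 CPM over the 39 mice. Slc25a24 lay close to the limit of detection, with 0 to 4.0 molecules in control males. The testis form Slc25a31 was not detected.

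**Figure D2:**
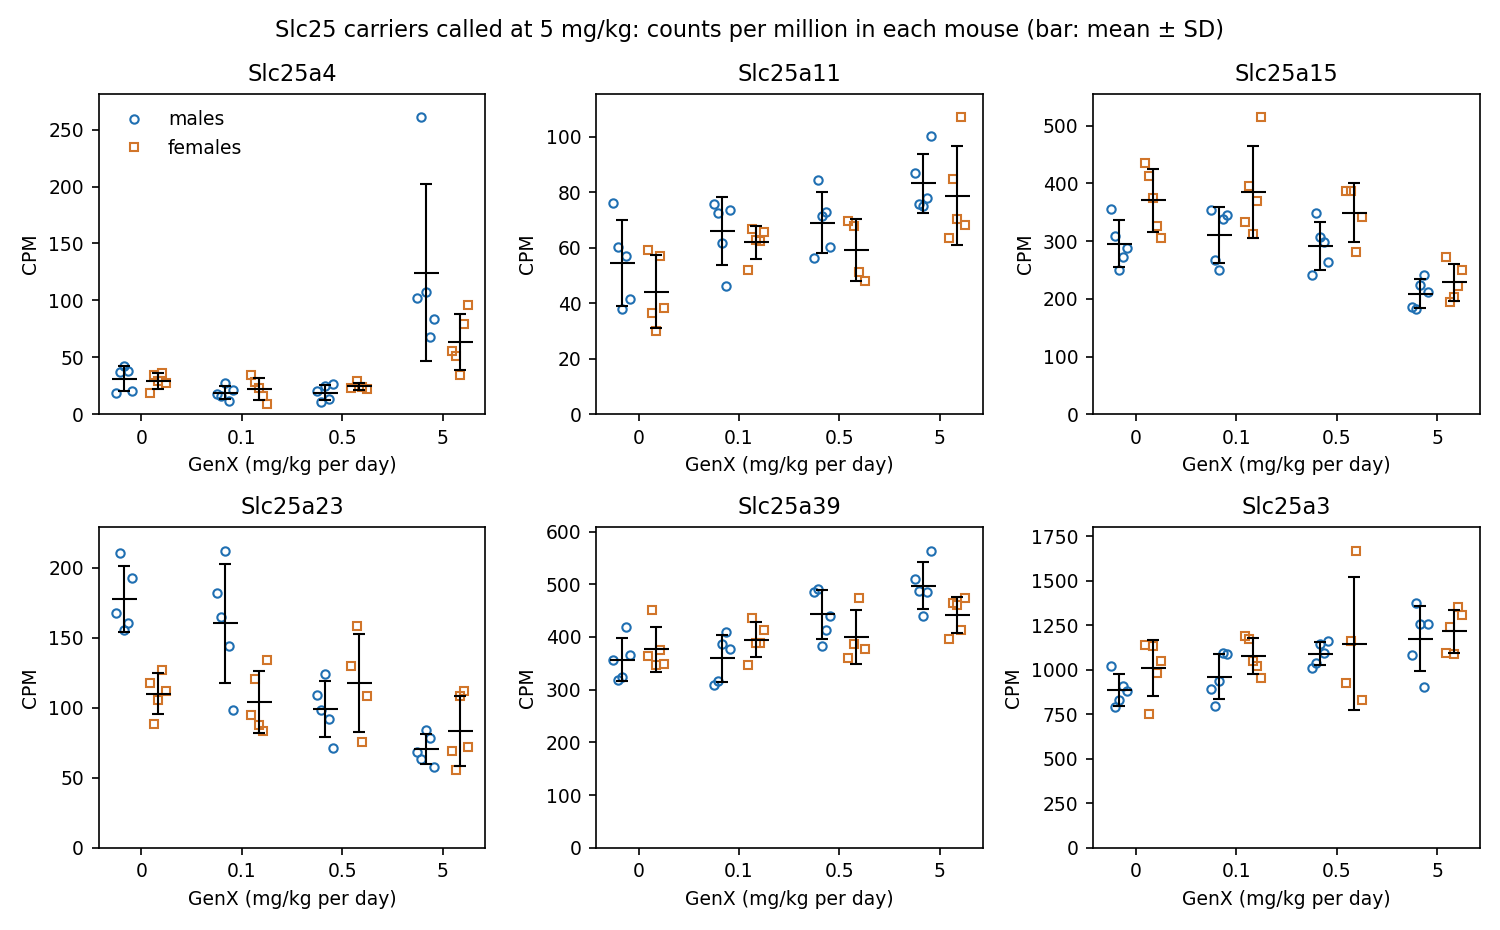
CPM (y axis) by daily dose of GenX (x axis) for the 6 detected carriers called at 5 mg/kg, with a symbol for each mouse and a bar for the mean ± SD of each group. In males at 5 mg/kg Slc25a4 ranged from 67.7 to 261 CPM, above all controls, and Slc25a23 from 57.5 to 84.4 CPM, below all controls.

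All 4 carriers of dicarboxylates, tricarboxylates and oxoglutarate were detected, and 1 of them rose in each sex at 5 mg/kg. Slc25a11 exchanges oxoglutarate for malate in the malate-aspartate shuttle and lies on chr11:70644196-70647479 (GRCm38, minus strand). In control females it had 59.3, 36.5, 30.1, 57.0 and 38.3 CPM, and the females given 5 mg/kg had 63.4, 85.0, 70.6, 107 and 68.3 CPM, with no overlap. This was a log2 fold change of 0.84 (SE 0.21, adjusted p = 0.0114 by edgeR). At 0.1 and 0.5 mg/kg the females had 51.9 to 67.0 and 48.0 to 69.9 CPM, and the log2 fold changes of 0.49 (SE 0.21) and 0.42 (SE 0.22) did not pass the threshold.

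In males Slc25a11 had 76.2, 60.2, 37.8, 56.9 and 41.5 CPM in controls and 86.9, 76.0, 75.1, 78.0 and 100 CPM at 5 mg/kg. Control mouse 101 lay within the range of the treated males and the other 4 controls below it. The log2 fold change was 0.61 (SE 0.21, adjusted p = 0.0687 by edgeR), and the call was lost without mouse 103, 105, 401 or 405 (adjusted p = 0.206, 0.19, 0.117 and 0.177) and with DESeq2 size factors in edgeR (adjusted p = 0.137). The change had a difference between the sexes of 0.22 (SE 0.29, females minus males), smaller than its error.

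Slc25a10, the dicarboxylate carrier, had 14.4, 4.09, 3.04, 0 and 0 CPM in control males and 16.8, 26.5, 15.1, 10.2 and 15.6 CPM at 5 mg/kg, where 1 control mouse lay within the range of the treated males. Its log2 fold change of 1.96 had an SE of 0.88 and did not pass the threshold (adjusted p = 0.191 by edgeR). In females the mean was 7.08 ± 2.60 CPM in controls and 16 ± 5.79 CPM at 5 mg/kg (SD, n = 5 each), with a log2 fold change of 1.18 (SE 0.86, adjusted p = 0.696 by edgeR). These levels stand for at most 4.7 molecules in a control library. Slc25a1, the citrate carrier, had 24.8 ± 6.80 CPM in control males and 17.4 ± 6.16 CPM at 5 mg/kg, and Slc25a21, which carries oxoadipate and oxoglutarate, 18.9 ± 8.30 and 16.2 ± 5.69 CPM. In females Slc25a1 had 14.02 ± 6.03 CPM in controls and 14.81 ± 6.85 CPM at 5 mg/kg, and Slc25a21 24.48 ± 5.43 and 14.25 ± 5.48 CPM. Neither passed the threshold in either sex.

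Of the 9 amino acid carriers 5 were detected (Slc25a13, Slc25a15, Slc25a22, Slc25a38 and Slc25a44), and 1 of the 8 tested fell in each sex at 5 mg/kg. Slc25a15 takes ornithine into the matrix in exchange for citrulline, a step of the urea cycle, and lies on chr8:22375551-22398597 (GRCm38, minus strand). Control males had 357, 310, 250, 273 and 288 CPM and males at 5 mg/kg 185, 183, 225, 241 and 212 CPM. Control females had 435, 413, 374, 327 and 306 CPM and females at 5 mg/kg 272, 194, 203, 222 and 251 CPM. In both sexes every mouse at 5 mg/kg lay below every control mouse. The log2 fold change was -0.50 (SE 0.15, adjusted p = 0.0266 by edgeR) in males and -0.70 (SE 0.15, adjusted p = 0.0017 by edgeR) in females. The male call was lost without mouse 101 (log2 fold change -0.42, adjusted p = 0.111).

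The fall of Slc25a15 came with the step to the highest dose. At 0.5 mg/kg the mean was 292 ± 41.4 CPM in males (n = 5) and 350 ± 50.4 CPM in females (n = 4), with log2 fold changes against control of -0.02 (SE 0.15) and -0.09 (SE 0.16). From 0.5 to 5 mg/kg the log2 fold change was -0.48 in males (SE 0.15, adjusted p = 0.0863 by edgeR) and -0.61 in females (SE 0.16, adjusted p = 0.0333 by edgeR). The male call for this step was lost without mouse 302, 303, 304, 401, 402, 403 or 405 (adjusted p up to 0.292) and the female call without mouse 351, 352 or 452 (adjusted p up to 0.149). With the library of mouse 355 put back the step in females was -0.31 (adjusted p = 0.911). The change at 5 mg/kg differed between the sexes by -0.20 (SE 0.21, females minus males), within its error. Of the 2 carriers called in the step from 0.5 to 5 mg/kg in each sex, Slc25a4 rose and Slc25a15 fell, against 2.64% of all probes in males and 1.23% in females.

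Slc25a13, citrin, exports aspartate in exchange for glutamate and was read by 2 detected probes. The most counted probe had 596 ± 96.3, 697 ± 83.5, 715 ± 60.4 and 561 ± 66.4 CPM in males at 0, 0.1, 0.5 and 5 mg/kg (SD, n = 5 each), and was not called at any dose. The second probe had 413, 404, 423, 451 and 494 CPM in control males and 738, 584, 550, 540 and 654 CPM at 0.5 mg/kg, with no overlap. Its log2 fold change at 0.5 mg/kg was 0.49 (SE 0.15, adjusted p = 0.0929 by edgeR), compared with 0.26 (SE 0.14, adjusted p = 0.338 by edgeR) for the first probe. At 5 mg/kg the second probe was at 368 to 436 CPM, and its step from 0.5 to 5 mg/kg was -0.60 (SE 0.15, adjusted p = 0.0152 by edgeR). For the first probe the step was -0.35 (SE 0.14, adjusted p = 0.281 by edgeR). In females neither probe was called at any dose, with log2 fold changes of 0.09 and -0.02 at 5 mg/kg.

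The other 3 detected carriers of amino acids were not called. Slc25a22, a glutamate carrier, had 117 ± 23.9 CPM in control males and 152 ± 29.5 CPM at 5 mg/kg, and 194 ± 95.9 and 126 ± 53.5 CPM in females (SD, n = 5 each). Mouse 152 among the control females, at 358 CPM, and mouse 255 at 0.1 mg/kg, at 436 CPM, stood apart. A second probe for the gene was also highest over all mice in these 2 animals, at 36.1 and 44.4 CPM. Another probe, the least counted of those for the gene, did not set them apart, at 20.2 and 22.8 CPM, below mouse 155 at 24.7 CPM and mouse 401 at 24.4 CPM. Slc25a38, a glycine carrier needed for haem synthesis, had 18.04 ± 4.42 CPM in control males and 8.75 ± 6.70 CPM at 5 mg/kg (log2 fold change -1.04, SE 0.42, adjusted p = 0.153 by edgeR). Slc25a44, which carries branched-chain amino acids, had 22.03 ± 13.3 and 25.5 ± 6.10 CPM in males.

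Of the 9 carriers of cofactors and other nucleotides 5 were detected (Slc25a16, Slc25a17, Slc25a32, Slc25a42 and Slc25a51), and none of these was called by edgeR at any dose in either sex (adjusted p = 0.489 or above, with 0 at an unadjusted p under 0.05, and 0 by DESeq2 at 5 mg/kg). Slc25a17, which lies in the peroxisomal membrane and carries CoA, FAD and NAD, was the other carrier that differed between the control groups, where 3.49% of all probes did. It had 113, 215, 205, 245 and 227 CPM in control males and 118, 103, 122, 168 and 155 CPM in control females, and only mouse 101 brought the ranges together. The difference was -0.59 (SE 0.19, females minus males, adjusted p = 0.0979 by edgeR). The adjusted p rose to between 0.165 and 0.252 when male 102, 103, 104 or 105 or female 151, 152 or 153 was left out. At 5 mg/kg Slc25a17 measured 167 to 263 CPM in males and 131 to 193 CPM in females, with log2 fold changes of -0.09 (SE 0.19) and 0.18 (SE 0.19).

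Slc25a16, a carrier linked to the supply of CoA, had 111 ± 10.7 CPM in control males and 113 ± 17.2 CPM at 5 mg/kg, and 111 ± 16.9 and 92.8 ± 7.05 CPM in females (SD, n = 5 each). Slc25a32, the carrier of folate and FAD, had 77.6 ± 13.3 and 84.5 ± 7.53 CPM in males. Slc25a42, a carrier of CoA, and Slc25a51, which carries NAD, had group means of 3.74 to 13.2 CPM and 5.11 to 18.9 CPM. Slc25a36, a carrier of pyrimidine nucleotides, was called lower in females at 5 mg/kg (adjusted p = 0.0396 by edgeR) but was not detected. It had 0 to 55 reads in control females, at most 2.1 molecules, and 0 reads in all 5 treated females. Both groups were below a floor of 3 molecules per library, so no fold change is given, and with both probes for the gene summed the call was lost (adjusted p = 0.446).

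All 4 carriers of iron and glutathione were detected. Slc25a39, which brings glutathione into mitochondria and lies on chr11:102402985-102407946 (GRCm38, minus strand), was the 1 member called, in males. It had 357, 318, 324, 419 and 367 CPM in control males and 510, 487, 440, 486 and 564 CPM at 5 mg/kg, with no overlap, and a log2 fold change of 0.48 (SE 0.12, adjusted p = 0.00639 by edgeR). Males at 0.5 mg/kg lay between, at 383 to 491 CPM (log2 fold change 0.31, SE 0.12, adjusted p = 0.244 by edgeR). In females the mean was 377 ± 42.6 CPM in controls and 442 ± 34.6 CPM at 5 mg/kg (SD, n = 5 each), a log2 fold change of 0.23 (SE 0.12) that did not pass the threshold.

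The second probe for Slc25a39 did not show the rise in males. It had 101, 108, 138, 133 and 65.6 CPM in control males and 106, 118, 98.2, 99.5 and 121 CPM at 5 mg/kg (log2 fold change -0.01), and in females the change was 0.42 (SE 0.22, adjusted p = 0.319 by edgeR). It was lower in control females, at 51.7 to 74.0 CPM, than in control males, at 65.6 to 138 CPM (log2 difference -0.79, SE 0.22, adjusted p = 0.0366 by edgeR). For the most counted probe the log2 difference between the control groups was 0.08 (SE 0.12). The paralogue Slc25a40 had 7.99 ± 2.70 CPM in control males and 15.1 ± 4.58 CPM at 5 mg/kg, and 9.84 ± 7.66 and 9.12 ± 7.23 CPM in females (SD, n = 5 each), with no call. The mitoferrins Slc25a28 and Slc25a37 import iron. Slc25a28 had 24.7 ± 7.70 CPM in control males and 12.1 ± 4.92 CPM at 5 mg/kg, with no overlap between these groups, and a log2 fold change of -1.03 (SE 0.42, adjusted p = 0.158 by edgeR). Males at 0.1 mg/kg, at 10.9 ± 4.59 CPM, also lay below all controls without passing the threshold. Slc25a28 stood for 5.6 to 11.4 molecules per library in control males and 2.3 to 5.3 at 0.1 mg/kg. At 5 mg/kg it stood for 3.8 to 9.5 molecules, a range that overlaps that of the controls. Slc25a37 had 22.5 ± 14.5 CPM in control males and 27.7 ± 7.76 CPM at 5 mg/kg.

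**Figure D3:**
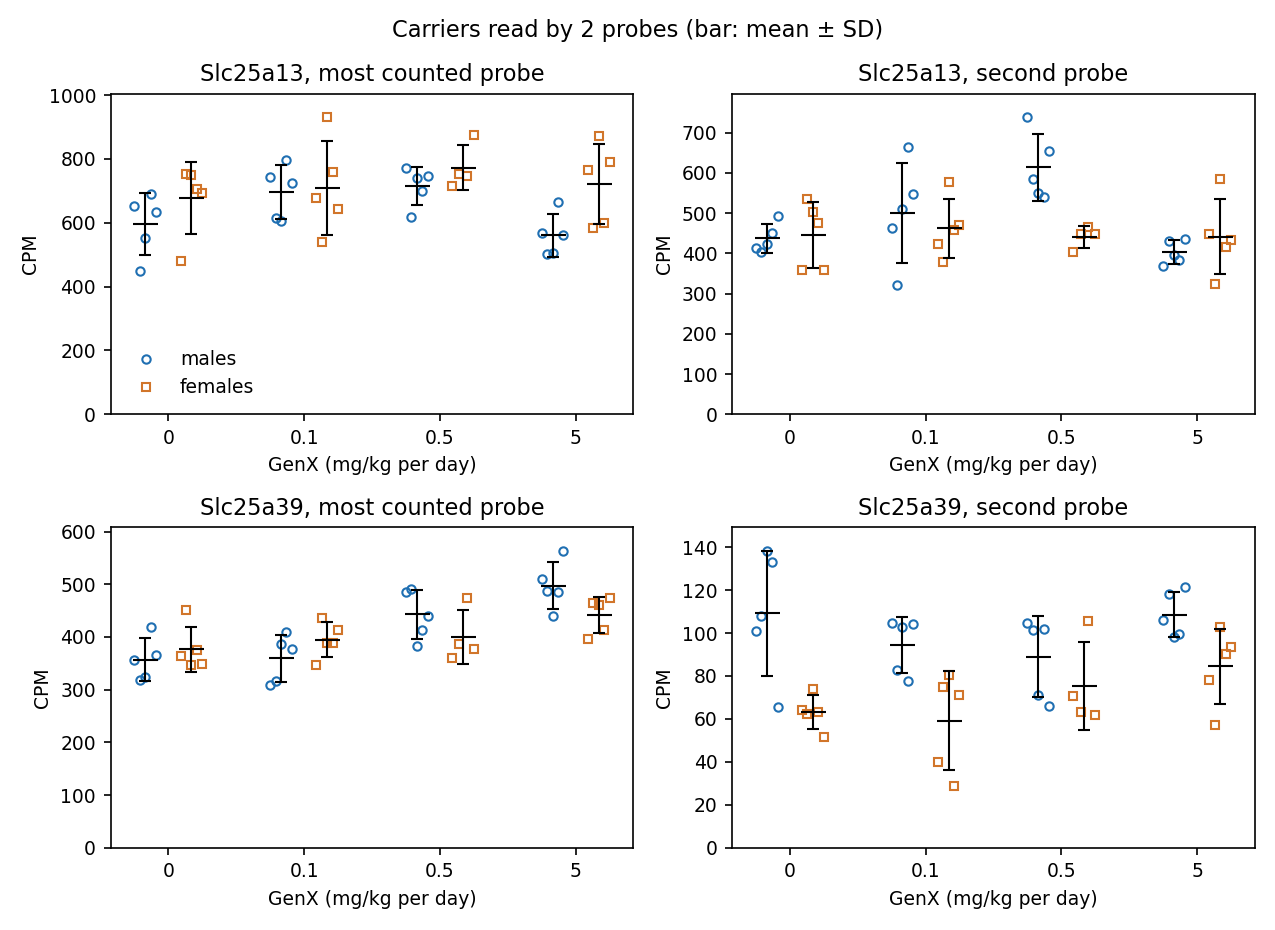
CPM (y axis) by daily dose of GenX (x axis) for the most counted and the second probe of Slc25a13 and Slc25a39, with a symbol for each mouse and a bar for the mean ± SD of each group. In males at 5 mg/kg the most counted probe of Slc25a39 lay at 440 to 564 CPM, above its controls, and the second probe at 98.2 to 121 CPM, within the range of its controls.

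The rest of the detected carriers were Slc25a14, a relative of the uncoupling proteins, and Slc25a45, Slc25a46 and Slc25a47. None of these was called by edgeR against control mice, with an unadjusted p under 0.05 in 3 cases and no call by DESeq2. Over all probes, 10.2% to 22.1% had such a p, depending on the comparison. Slc25a46, which sits in the outer membrane and takes part in mitochondrial fission and fusion, had 49.0 ± 10.9 CPM in control males and 72.7 ± 7.53 CPM at 0.5 mg/kg (SD, n = 5 each), with no overlap and a log2 fold change of 0.57 (SE 0.25, adjusted p = 0.259 by edgeR). The second probe for Slc25a46 went the other way, with 42.9 ± 7.53 CPM in control males and 29.3 ± 8.75 CPM at 0.5 mg/kg, where the groups overlapped (-0.55, SE 0.30, adjusted p = 0.35 by edgeR). Slc25a45 had 20.5 ± 9.58 CPM in control females and 9.72 ± 4.80 CPM at 5 mg/kg (log2 fold change -1.08, SE 0.46, adjusted p = 0.258 by edgeR). These levels stand for 2.9 to 15.8 and 0.8 to 4.5 molecules per library. The second probe for Slc25a45 had a log2 fold change of -0.24 in females at 5 mg/kg. Slc25a47, a carrier found mainly in liver, varied widely within groups, from 37.3 to 163 CPM in control females and from 15.1 to 116 CPM in females at 5 mg/kg. Slc25a14 had 10.8 ± 6.79 CPM in control males and 8.42 ± 3.34 CPM at 5 mg/kg.

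The sexes were compared by an interaction of sex and dose. No carrier passed the threshold by edgeR at 5 mg/kg or at 0.5 mg/kg, where 1.04% and 0.274% of all probes did. At an unadjusted p under 0.05, edgeR gave 5 of 40 carriers at 5 mg/kg and 3 of 40 at 0.5 mg/kg. Over all probes this share was 12.4% and 10.9%. DESeq2 called 1 carrier, Slc25a23, at each dose. The share of all probes that DESeq2 called is not given, so this count does not show whether carriers differed more than other genes.

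How far a change could be measured differed among the carriers. The SD of log2(CPM + 1) between mice of a group was 0.15 for Slc25a39, 0.22 for Slc25a15, Slc25a3 and Slc25a13, and 0.23 for Slc25a16. It was over 0.9 for Slc25a40, Slc25a42, Slc25a10, Slc25a24 and Slc25a14, each with a median of at most 10.4 CPM. Slc25a47 and Slc25a25 varied by 0.72 and 0.79 at medians of 71.1 and 43.2 CPM, more than Slc25a11 and Slc25a46, which varied by 0.29 and 0.41 at 65.9 and 60.9 CPM.

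**Figure D4:**
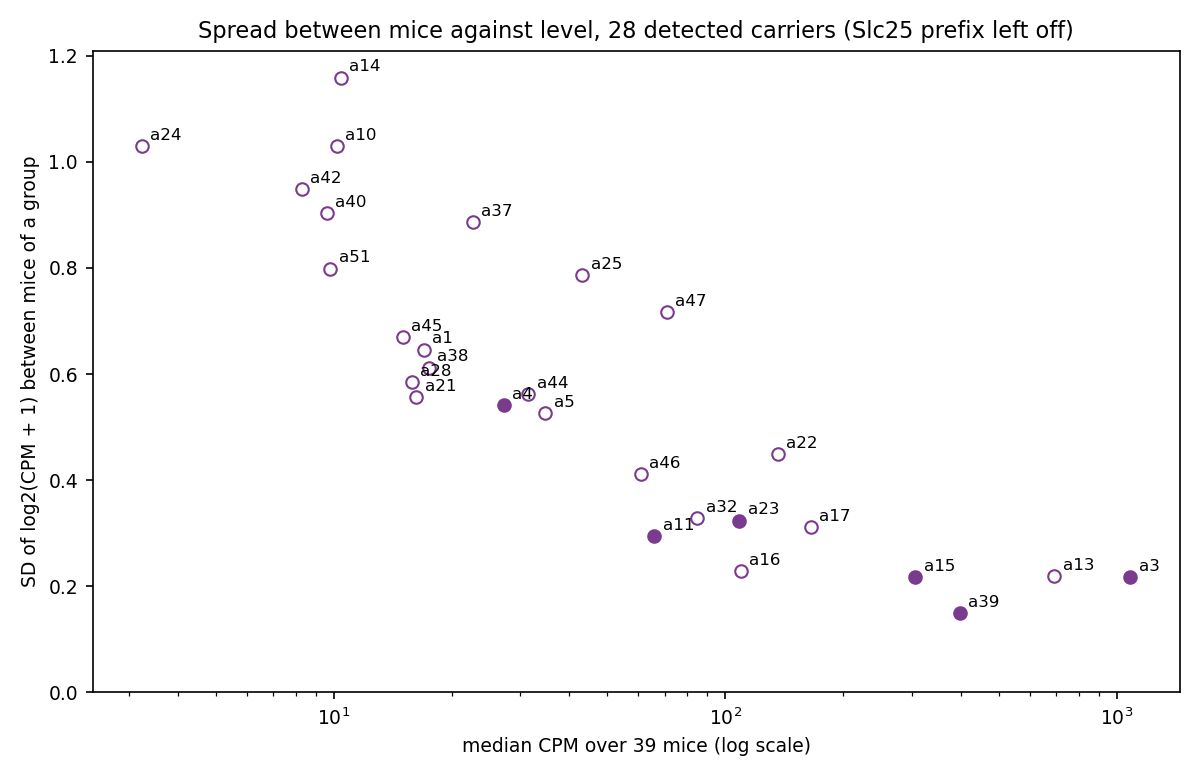
SD of log2(CPM + 1) between mice of the same group (y axis) against the median CPM over 39 mice (x axis, log scale) for the 28 detected carriers, with the prefix Slc25 left off the labels. Filled points are the 6 detected carriers called in a comparison with control mice, whose SDs run from 0.15 (Slc25a39) to 0.54 (Slc25a4).

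The promoters of the carriers that moved in both sexes are shown because a receptor of the PPAR family binds direct repeats of AGGTCA with 1 base between the half-sites. RefSeq (GRCm38.p6) gave 44 promoters for 34 of the 45 carriers, and the 250 bases before each start were searched for this repeat on both strands. No carrier promoter held the repeat with at most 1 mismatch, compared with 0.48% of 32851 promoters of all genes. With at most 2 mismatches it was found in 2 of 44 carrier promoters (4.55%), compared with 3.24% of all promoters. The 2 were those of Slc25a45 and Slc25a47, neither of which was called. In the 5 promoters below, written 5′ to 3′, capitals mark the 13 bases closest to the repeat on either strand. These have 4 mismatches for Slc25a4 and for the farther of the starts of Slc25a15, 5 for Slc25a11, and 2 for Slc25a45 and Slc25a47. The nearer start of Slc25a15, on chr8:22398278-22398527, had 5 and is not printed. A stretch with at most 4 mismatches was present in 74.5% of all promoters, so the first 3 are no closer to the repeat than most promoters.
Slc25a4, chr8:46211063-46211312, minus strand: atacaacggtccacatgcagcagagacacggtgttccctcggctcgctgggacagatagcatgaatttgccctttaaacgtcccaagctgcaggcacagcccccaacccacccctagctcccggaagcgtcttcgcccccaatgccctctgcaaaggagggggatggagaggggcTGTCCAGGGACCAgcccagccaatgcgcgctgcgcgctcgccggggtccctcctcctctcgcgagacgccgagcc
Slc25a11, chr11:70647040-70647289, minus strand: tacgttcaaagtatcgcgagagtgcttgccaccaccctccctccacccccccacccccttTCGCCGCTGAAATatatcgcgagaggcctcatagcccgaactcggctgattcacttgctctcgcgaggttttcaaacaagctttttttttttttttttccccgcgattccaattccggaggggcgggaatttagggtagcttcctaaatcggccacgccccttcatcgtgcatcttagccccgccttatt
Slc25a15, chr8:22398622-22398871, minus strand: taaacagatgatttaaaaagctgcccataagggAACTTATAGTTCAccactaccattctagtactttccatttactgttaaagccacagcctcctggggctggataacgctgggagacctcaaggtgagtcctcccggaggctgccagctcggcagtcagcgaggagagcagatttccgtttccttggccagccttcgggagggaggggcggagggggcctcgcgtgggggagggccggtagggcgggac
Slc25a45, chr19:5877572-5877821, plus strand: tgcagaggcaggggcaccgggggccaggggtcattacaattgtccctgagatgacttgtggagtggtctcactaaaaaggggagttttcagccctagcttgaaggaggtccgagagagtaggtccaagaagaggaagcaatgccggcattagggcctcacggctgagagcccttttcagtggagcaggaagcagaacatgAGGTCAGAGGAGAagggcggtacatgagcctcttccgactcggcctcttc
Slc25a47, chr12:108850879-108851128, plus strand: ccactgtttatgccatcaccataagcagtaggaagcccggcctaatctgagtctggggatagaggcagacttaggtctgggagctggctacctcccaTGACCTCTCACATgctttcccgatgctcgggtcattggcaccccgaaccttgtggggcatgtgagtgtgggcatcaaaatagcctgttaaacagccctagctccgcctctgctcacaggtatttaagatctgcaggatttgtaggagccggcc

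Other genes of the pathway gave a background for the carriers. At 5 mg/kg, 4.83% of all probes were called higher in males and 1.83% in females. Among 5 carriers of the same family under other names, Ucp2, which was detected, rose at 5 mg/kg among males (log2 fold change 3.07, SE 0.41, adjusted p = 1.5e-07 by edgeR) and among females (1.33, SE 0.38, adjusted p = 0.041 by edgeR). Its reads were 91 to 192 in control males, 975 to 2127 in males at 5 mg/kg, 122 to 443 in control females and 393 to 1266 in females at 5 mg/kg. Ucp3 had 0 reads in every mouse at 0, 0.1 and 0.5 mg/kg, 62 to 290 reads in males and 22 to 97 reads in females given 5 mg/kg, and was called in both sexes. Its molecules per library at 5 mg/kg were 2.7 to 11.6 in males, with a median of 3.1, and 0.7 to 2.4 in females, below the floor of 3. Mtch2, a relative in the outer membrane, rose in males (0.83, SE 0.30, adjusted p = 0.0989 by edgeR), Mtch1 was not called, and Ucp1 had 0 reads in all 39 libraries.

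None of 5 genes for the porins and the pyruvate carrier (Vdac1, Vdac2, Vdac3, Mpc1 and Mpc2) was called by edgeR at 5 mg/kg (lowest adjusted p = 0.334 and 0.358), with median log2 fold changes of 0.16 in males and 0.06 in females. Of 13 genes for the import of carriers into the inner membrane, 1 rose in each sex, against 4.83% of all probes in males and 1.83% in females. It was Tomm20, an import receptor, in males (0.82, SE 0.18, adjusted p = 0.0016 by edgeR) and Timm8b, a small chaperone of the intermembrane space, in females (0.40, SE 0.12, adjusted p = 0.0734 by edgeR). The median of the 13 was 0.24 in males and 0.40 in females, compared with 0.10 and -0.01 over all probes.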

How the data were processed

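Liver sections from 40 mice were measured by TempO-Seq. The authors converted the reads with bcl2fastq 2.17.1.14 and aligned them with Bowtie to mm10, as their processing notes name them, and deposited raw counts per probe in a table that was not normalized. Groups were set by the dose and sex in the labels. The library of mouse 355, with 6711981 reads, fell below the limit of 2 SD under the mean of all 40 libraries (9680193 reads) and was left out, as in the study's methods. Probes were filtered with edgeR's default, scaled by TMM and tested with edgeR 4.0.16 in R 4.3.3, with 8 groups in 1 model and no covariates, two-sided, and with Benjamini-Hochberg adjustment over 17877 probes at 10%. P-values measure the spread between mice. Levels are CPM after TMM scaling. Molecules are counts divided by the reads per molecule of a library, which were estimated here from the first peak of the smoothed histogram of nonzero counts. Probes differ in efficiency, so where levels of different genes stand side by side they do not give the relative amounts of their RNA.

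The most counted probe stood for a gene, and other probes are given where they were called. Every detected member is named in its group. Per-mouse values are given for members called in a comparison with control mice, and the members named for a promoter, an outlier or a second probe were chosen after their values were seen. The members and gene lists were chosen with earlier results of these data known. Markers of other cell types in the sections were listed too. Of those of Kupffer cells (5 of 5 tested), cholangiocytes (2 of 4), lymphocytes (3 of 3) and erythroid cells (1 of 3), none was called by edgeR at 5 mg/kg. Those of adipocytes were not tested for lack of reads. In males 1 of 4 endothelial markers was called lower at 5 mg/kg, against 3.45% of all probes. Alternatives were DESeq2 1.42.0, other normalization, filters and libraries, probes summed by gene, and leaving out each mouse. The tests and the search for molecules were tested on simulated data. Gene coordinates are from GENCODE vM21 (GRCm38).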

Additional observations from a re-analysis of the deposited data

Results flagged for a closer look

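In 224 groups of a detected carrier the highest or lowest mouse was compared with the nearest other mouse by Dixon's ratio. It exceeded the 95% critical value in 22 groups, spread over 15 carriers and 19 mice. That value assumes normally distributed levels, for which about 11.2 groups would exceed it at 5%. CPM with zeros and few molecules is not so distributed, and no conclusion is drawn from the number of groups. In males at 5 mg/kg, mouse 402 stood high in Slc25a4 (261 CPM, next 107 CPM) and Slc25a17 (263 CPM, next 177 CPM), mouse 403 high in Slc25a25 (88.0 CPM) and mouse 404 low in Slc25a24 (0 CPM). Among control males, mouse 101 was high in Slc25a10 (14.4 CPM). At 0.1 mg/kg, male 201 was high in Slc25a17 (334 CPM), male 205 in Slc25a24 (3.18 CPM), female 253 in Slc25a45 (24.8 CPM) and female 255 in Slc25a22 (436 CPM). At 0.5 mg/kg, male 301 was high in Slc25a46 (85.7 CPM) and Slc25a47 (132 CPM) and male 302 low in Slc25a17 (147 CPM).

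Among control females, mouse 152 was high in Slc25a22 (358 CPM) and Slc25a39 (450 CPM), mouse 151 low in Slc25a13 (481 CPM), mouse 154 low in Slc25a46 (25.5 CPM) and mouse 155 low in Slc25a38 (9.44 CPM). In females at 0.5 mg/kg, mouse 351 was low in Slc25a46 (55.0 CPM), mouse 352 high in Slc25a40 (25.8 CPM), mouse 353 high in Slc25a32 (111 CPM) and mouse 354 low in Slc25a10 (0.43 CPM). Female 453 at 5 mg/kg was high in Slc25a16 (105 CPM). The calls of Slc25a4 and Slc25a39 at 5 mg/kg in males held without each mouse in turn.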

How the results depend on the processing

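Adding the library of mouse 355 moved most counts of called carriers: from 6 to 2 in males and from 4 to 1 in females at 5 mg/kg, from 1 to 0 in males at 0.5 mg/kg, from 2 to 1 in males and from 2 to 0 in females for 5 against 0.5 mg/kg, and from 2 to 0 between the control groups. Slc25a4 and Slc25a39 in males at 5 mg/kg remained called under every setting and without each mouse, with log2 fold changes of 1.51 to 2.14 and 0.35 to 0.54. Slc25a23 in males at 5 mg/kg kept its call except with mouse 355 (adjusted p = 0.151). Slc25a11 in males also lost its call without the filter on low counts (adjusted p = 0.166). None of the carriers called changed direction under any setting run. The cause of each change was not tested. Calls over all probes under these settings are not given here or below, so the counts do not show whether carriers moved more than other genes.

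With counts in molecules, which left 20 carriers tested, the counts were 2 in males at 0.5 mg/kg and 4 in males for 5 against 0.5 mg/kg, and without the filter the latter was 1. With only the groups compared in the fit, the counts were 1 in females for 5 against 0.5 mg/kg and 1 between the control groups. The interaction at 5 mg/kg went from 0 to 1 carrier with DESeq2, DESeq2 size factors, only the groups compared and counts in molecules (Slc25a23 each time), and with no filter (Slc25a22). At 0.5 mg/kg it went from 0 to 1 with DESeq2 and with counts in molecules (Slc25a23). Leaving out each mouse in turn gave 4 to 6 carriers in males and 3 to 5 in females at 5 mg/kg, 1 to 2 and 0 to 2 for 5 against 0.5 mg/kg, 0 to 1 for the interaction at 5 mg/kg (1 without female 452), and 0 to 3 between the control groups. DESeq2 size factors moved the median log2 fold change of all probes in males at 5 mg/kg from 0.10 to 0.03, and leaving out the filter on low counts, in edgeR or in DESeq2, put it at 0. The median of the carriers tested in that comparison, -0.15, ran from -0.29 with DESeq2 to -0.01 with counts in molecules, and in females -0.09 turned to 0.13 with counts in molecules. No paired analysis was possible because animal numbers are not shared between groups. For the 17 carriers not detected and those with a few molecules per library, whether depth or little RNA in liver gave the low counts was not tested.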
